A study of Homo sapiens with 38 samples.

Results

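The genes described here are 31 genes of glucose transport, glycolysis and the pentose phosphate pathway, measured in human tumour cells under glucose stress. They were taken as a fixed list of names, from the glucose carriers at the plasma membrane to the enzymes that make lactate and ribose phosphate, and each gene was read from the probe set with its highest mean signal. Of the 31 genes, 29 had a probe set annotated to 1 gene symbol and 28 reached the signal needed for testing, of 11456 genes tested in all. The carrier SLC2A6 stayed below that signal on every array, and the lactate exporters SLC16A1 and SLC16A3 were not analysed here.

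The series holds 38 arrays, 1 per sample, and the labels do not say whether samples of a group came from separate cultures. The treated samples were HT-1080, a fibrosarcoma line, HT-29, a colorectal adenocarcinoma line, and rho0 derivatives of both, which have lost their mitochondrial DNA (mtDNA) and with it a working respiratory chain. In HT-1080, 2-deoxyglucose (2DG), a glucose analogue that is phosphorylated but not broken down further, was given to 3 samples, glucose starvation (GS) to 2 and tunicamycin (TM), a blocker of N-glycosylation, to 1. A further 5 HT-1080 samples received 2DG with a respiratory inhibitor: metformin (Met, 10 mM), buformin (Bu, 300 µM) or phenformin (Phen, 100 µM), which are biguanides acting on complex I, rotenone (Rot, 100 nM), a complex I inhibitor, or antimycin A (AA, 10 ng/ml), a complex III inhibitor. Rot was combined with GS in 2 samples, 1 of which carries the label supernatant (S), and whether they share a culture is not stated. AA was combined with GS in 1 sample with the label supernatant, and Rot and AA with TM in 1 sample each. Versipelostatin (VST, 3 µM), a compound that blocks chaperone induction in glucose-short cells, was given with 2DG and with GS in HT-1080 and with GS in HT-29. The rho0 HT-1080 cells received 2DG, GS (label supernatant) or TM, 1 sample each. HT-29 received GS in 3 samples and rho0 HT-29 in 1. Exposure lasted 18 h, or 14 h for HT-29 GS replicate 3 and rho0 HT-29 with GS. Untreated controls numbered 2 for rho0 HT-1080, 6 for HT-1080, 1 for rho0 HT-29 and 3 for HT-29. How much 2DG and TM was used is not given in the sources used here, no sample had a compound without a stress, and each rho0 line is set against its parental line without a restored-mtDNA control.

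Cells take up glucose through facilitative carriers of the SLC2A family, trap it with hexokinase, and split and oxidise it to pyruvate, which lactate dehydrogenase can turn into lactate while regenerating NAD+. The committed step is phosphofructokinase, whose strongest activator, fructose 2,6-bisphosphate, is made and removed by the bifunctional PFKFB enzymes. The pentose phosphate pathway branches off at glucose 6-phosphate and supplies NADPH and ribose. Cells without respiration depend on glycolysis for ATP, and many tumour lines keep a high glycolytic flux even in oxygen.

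Line markers fitted the labels: EPCAM, an epithelial adhesion protein, averaged 5377 on the 9 HT-29 arrays against 5.02 on the 29 HT-1080 arrays, and VIM, a mesenchymal filament, 32.7 against 10640. The 7 mtDNA-encoded transcripts measured averaged 0.514 to 6.96 over all arrays of a rho0 line, treated ones included. Over all arrays of a parental line they averaged 224 to 11680. Signals here are MAS5 intensities scaled so that every array has the same trimmed mean over all probe sets, and changes are log2 differences tested with limma, with Benjamini-Hochberg adjusted p under 0.05 over all 11456 genes. Before that step, trimmed means were 89.5 to 102.1 where a compound accompanied 2DG or GS (11 arrays) and 90.2 to 96.3 in rho0 cells under 2DG or GS (3 arrays), against 121.6 to 130.8 on the 9 parental arrays with a single stress and 124.1 to 136.0 on parental controls. Scaling therefore raised signals by 0.29 to 0.51 in log2 on 13 of those 14 arrays relative to their own controls, and by 0.19 on rho0 HT-29 with GS. The log2 changes of dim signals shifted less, since 5% of the trimmed mean was added before log2 was taken. The choice bears on every result with an added compound or in rho0 cells. The members' counts in those comparisons, and the calls gained or lost, are therefore given under the deposited scaling too. For the 18 groups of a single array, the spread was taken from the replicated groups. A p-value here reflects differences among these samples alone.

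The start regions of 4 members on which the comparisons turn are shown first. Each is the 250 bases before the 1 start listed per gene in the RefSeq promoter table of GRCh38.p14, written 5′ to 3′ on the gene's own strand. Capitals mark ACGTG, a form of the core of the hypoxia response element, and its reverse complement CACGT. Other forms of that core were not searched for. For 9 of 28 members that window overlaps the gene's whole annotated span. The PFKFB4 window is of this kind: it lies on the minus strand at chr3:48556804-48557053, inside the gene's span of chr3:48517684-48563136. PFKFB4 changed with inhibitors and VST. HK2, on the plus strand at chr2:74833877-74834126, and PGK1, on the plus strand at chrX:78103998-78104247, were lower in rho0 HT-1080 controls on their brightest probe sets. The dim HK2 probe sets went the other way. ALDOC, on the minus strand at chr17:28576896-28577145, separated the lines.
PFKFB4: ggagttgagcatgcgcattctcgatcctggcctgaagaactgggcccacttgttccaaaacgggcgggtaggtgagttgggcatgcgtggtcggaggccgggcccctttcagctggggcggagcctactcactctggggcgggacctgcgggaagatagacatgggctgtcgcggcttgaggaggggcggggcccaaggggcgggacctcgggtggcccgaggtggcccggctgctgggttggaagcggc
HK2: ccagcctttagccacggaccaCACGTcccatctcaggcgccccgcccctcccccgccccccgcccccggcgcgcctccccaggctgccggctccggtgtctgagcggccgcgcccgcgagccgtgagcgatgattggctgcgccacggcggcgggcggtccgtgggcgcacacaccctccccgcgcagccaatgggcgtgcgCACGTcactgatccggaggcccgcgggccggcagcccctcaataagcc
PGK1: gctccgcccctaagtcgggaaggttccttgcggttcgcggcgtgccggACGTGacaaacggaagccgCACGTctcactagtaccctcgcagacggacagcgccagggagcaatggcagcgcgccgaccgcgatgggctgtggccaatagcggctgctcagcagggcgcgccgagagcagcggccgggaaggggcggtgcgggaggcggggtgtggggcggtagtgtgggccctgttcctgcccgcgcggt
ALDOC: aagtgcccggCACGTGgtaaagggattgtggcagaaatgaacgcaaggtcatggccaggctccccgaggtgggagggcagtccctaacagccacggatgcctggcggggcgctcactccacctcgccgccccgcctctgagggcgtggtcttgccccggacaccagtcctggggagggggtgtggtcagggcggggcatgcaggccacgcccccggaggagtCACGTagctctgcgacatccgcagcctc
The motif ACGTG was found 2 times in HK2, 2 times in PGK1, 3 times in ALDOC and not in the PFKFB4 window. That window is not the region before the outer end of PFKFB4, and its lack of ACGTG does not cover other forms of the core. In ALDOC the palindrome CACGTG holds an overlapping match on each strand. Among 28 members with a listed region, 9 (32.1%) held the motif on either strand, against 6501 of 35116 listed regions of all genes (18.5%). The match is a description of letters only, and binding was not measured.

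**Figure D1:**
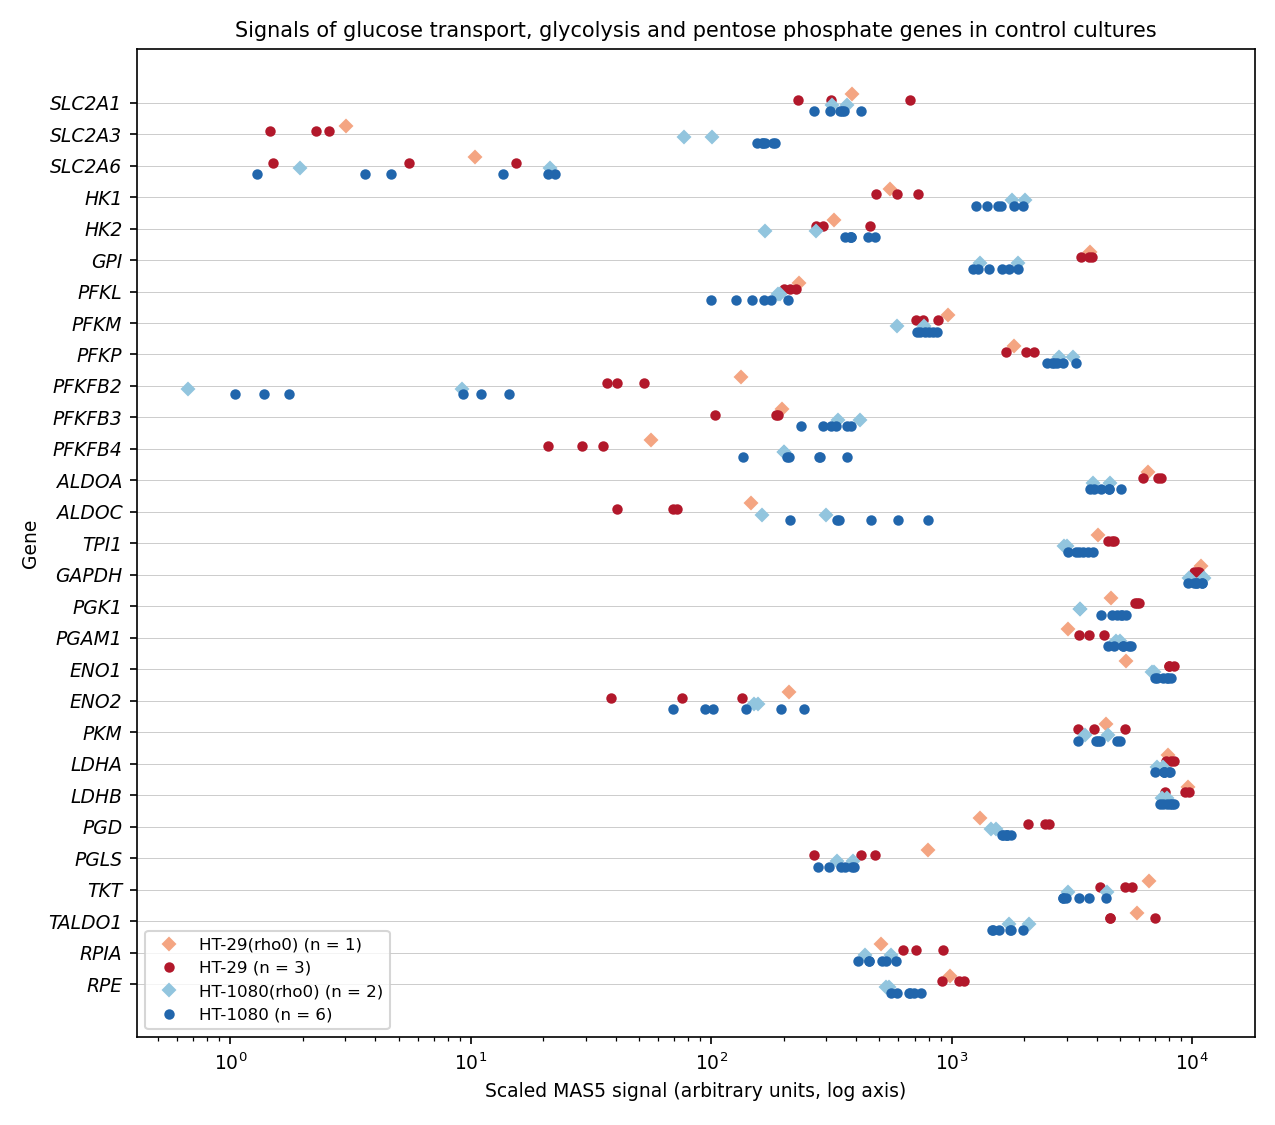
Scaled MAS5 signals (log axis, arbitrary units) of the 29 members with a probe set in untreated samples, 1 point per array, with HT-29 rho0, HT-29, HT-1080 rho0 and HT-1080 drawn from top to bottom within each gene. SLC2A3 lies at 1.46 to 2.57 in HT-29 and at 155 to 184 in HT-1080, while GAPDH overlaps in all cells; signals of different genes come from different probes and are not to be compared.

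Untreated HT-29 and HT-1080 cells differed at rest in most members, as they did in most of all genes tested. In HT-29 controls 11 of 28 members were higher and 7 lower than in HT-1080 controls, in a comparison where 59.8% of all genes passed the threshold in either direction, 27.4% higher and 32.4% lower. The median log2 difference was 0.10 over the members and -0.06 over all genes.

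The carriers and hexokinases came first. SLC2A3 (GLUT3), a high-affinity glucose carrier, had signals of 2.57, 1.46 and 2.28 in HT-29 and a lowest, median and highest of 155, 165 and 184 in HT-1080. The groups did not overlap, and the log2 difference of -4.48 (SE 0.17, adjusted p = 2.86e-11) is compressed by the offset, since the HT-29 signals were close to 0. Its probe set may also read the near-identical SLC2A14. SLC2A3 reached the signal needed for testing on the 29 HT-1080 arrays only, so it was tested through the line where it was higher. SLC2A1 (GLUT1), the common basal carrier, gave 315, 673 and 230 in HT-29 and 267, 347 and 417 as lowest, median and highest in HT-1080, so the groups overlapped (log2 difference 0.11, adjusted p = 0.716). HK1, the constitutive hexokinase, was lower in HT-29, with 482, 594 and 726 against 1261, 1580 and 1971 as lowest, median and highest in HT-1080 (log2 difference -1.41, SE 0.15, adjusted p = 1.4e-06). HK2, the inducible hexokinase bound to mitochondria, did not pass (-0.28, adjusted p = 0.211).

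At the phosphofructokinase step the lines differed mostly in the PFKFB enzymes. PFKFB4, an isoform first described in testis and common in tumour cells, had signals of 28.9, 35.4 and 20.9 in HT-29 against 136, 246 and 367 as lowest, median and highest in HT-1080 (-2.85, SE 0.25, adjusted p = 2.16e-07). PFKFB3, the isoform with the highest kinase activity, was also lower, with 185, 104 and 189 in HT-29 against 235, 321 and 382 in HT-1080 (-1.01, SE 0.20, adjusted p = 0.000493). PFKFB2, the heart isoform, went the other way, with 40.4, 52.6 and 36.7 in HT-29 against 1.04, 5.51 and 14.5 in HT-1080 (2.14, SE 0.43, adjusted p = 0.000592). It reached the signal needed for testing on 7 arrays, all of HT-29 or its rho0 line. PFKFB2 was therefore tested only through the line where it was higher, and the HT-29 controls at 40.4 and 36.7 were below that signal. None of the 3 PFKFB genes had overlapping groups, but the share of all genes without overlap was not counted. The phosphofructokinase subunits themselves split, with PFKP (platelet type) lower (log2 difference -0.50), PFKL (liver type) higher (0.49) and PFKM (muscle type) at -0.02 without passing.

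Lower in the pathway, GPI, which converts glucose 6-phosphate to fructose 6-phosphate, had 3457, 3702 and 3818 in HT-29 against 1229, 1522 and 1882 in HT-1080 (1.27, SE 0.14, adjusted p = 2.63e-06). The aldolases moved in opposite directions: ALDOA, the muscle and general form, was higher (0.69, SE 0.10, adjusted p = 2.76e-05), and ALDOC, the brain form, was lower, with 40.4, 71.8 and 69.0 in HT-29 against 213, 400 and 794 in HT-1080 (-2.72, SE 0.34, adjusted p = 7.99e-06). TPI1 (0.42) and PGK1 (0.28) were higher and PGAM1 (-0.42) lower, all with adjusted p of at most 0.00635. GAPDH, ENO1, ENO2, PKM, LDHA and LDHB did not pass, with log2 differences of -0.75 to 0.17. PGK1 did not pass after quantile normalization (0.11, adjusted p = 0.288), and PFKL did not pass with the deposited scaling (adjusted p = 0.0582). The other 16 calls held under the common, the deposited and the quantile scaling.

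The pentose phosphate branch was higher in HT-29 in 5 of its 6 measured members. TALDO1, transaldolase of the non-oxidative arm, had 4542, 7012 and 4552 in HT-29 against 1463, 1654 and 1986 in HT-1080 (1.66, SE 0.14, adjusted p = 1.36e-07). RPE (0.66) and RPIA (0.60), which interconvert ribulose, ribose and xylulose phosphates, TKT (0.57), transketolase, and PGD (0.48), the second NADPH-producing dehydrogenase, were also higher, with adjusted p of 0.000161 to 0.00415. The groups of TALDO1, RPE, RPIA and PGD did not overlap, while those of TKT did. How many of all genes had no overlap was not counted. PGLS, the lactonase between the oxidative steps, did not pass (0.14, adjusted p = 0.506).

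On the brightest probe set of each gene, loss of mtDNA went with lower SLC2A3, HK2 and PGK1 in untreated HT-1080 cells and with no higher member. These were 3 of 28 members, where 13.1% of all genes passed in either direction (6.15% higher and 6.95% lower). SLC2A3 had 77.1 and 100.4 in rho0 controls against 155, 165 and 184 as lowest, median and highest in the 6 parental controls (-0.89, SE 0.20, adjusted p = 0.0102). HK2 had 167 and 271 in rho0 controls against 358, 382 and 478 in parental ones (-0.90, SE 0.21, adjusted p = 0.0141). PGK1, the first ATP-producing kinase of glycolysis, had 3412 and 3400 in rho0 controls against 4158, 4964 and 5324 in parental ones (-0.51, SE 0.09, adjusted p = 0.00264). In all 3 genes the groups did not overlap. The calls held under 3 scalings. Without the first rho0 control 1 member was called, and SLC2A3 (-0.71, adjusted p = 0.165) and HK2 (-0.56, adjusted p = 0.262) did not pass. SLC2A3 also did not pass without the second rho0 control (-1.07, adjusted p = 0.0516).

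The probe sets of these genes did not all point the same way. For SLC2A3 the other probe sets gave -1.43 and -0.91 in rho0 HT-1080, and for PGK1 the other 5 gave -1.21 to -0.18. For HK2 the other probe sets, which are dim, gave 1.67 and 1.37, against -0.90 for the brightest one, and the mean over its probe sets was 0.72 (adjusted p = 0.0138), so the direction of HK2 depends on the probe set. The remaining members gave -0.90 to 0.33, with ALDOC (-0.90, adjusted p = 0.151) and PFKL (0.33, adjusted p = 0.365) at the ends. LDHA, which makes lactate, had 7582 and 7132 in rho0 controls against 7026, 7655 and 8053 in parental ones, and the groups overlapped (-0.06, adjusted p = 0.656). With the deposited scaling 9 members were lower and 0 higher, the 6 further ones being PFKM (-0.40), TPI1 (-0.39), ENO1 (-0.33), LDHA (-0.24, adjusted p = 0.0231), PGD (-0.35) and RPE (-0.45). Over all genes that scaling called 362 higher and 1651 lower, against 704 and 796 on the common one, with medians of -0.15 and 0.02.

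In HT-29 the single rho0 control was lower in ENO1 and PGD and higher in PGLS, 3 of 28 members with 7.97% of all genes called, 3.99% higher and 3.98% lower. ENO1, enolase, had 5309 in the rho0 control against 7971, 7965 and 8375 in the parental ones (-0.61, SE 0.11, adjusted p = 0.00426). PGD had 1308 against 2078, 2436 and 2542 in parental controls (-0.84, SE 0.14, adjusted p = 0.00324). Both rho0 values lay below every parental one. PGLS had 800 against 268, 479.7 and 420.5 in parental controls (1.07, SE 0.28, adjusted p = 0.035), but not with the deposited scaling (0.85, adjusted p = 0.0811) or without HT-29 control 1 (0.82, adjusted p = 0.0613). SLC2A3 (0.16) and HK2 (-0.03), which were lower in rho0 HT-1080, did not pass in rho0 HT-29, nor did PGK1 (-0.36, adjusted p = 0.108), and the difference between the lines was not tested. The deposited scaling called 0 members higher and 4 lower here, PGK1 (-0.57, adjusted p = 0.0119) and PGAM1 (-0.54, adjusted p = 0.021) joining ENO1 and PGD, with 256 of all genes higher and 971 lower against 457 and 456 on the common scaling.

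**Figure D2:**
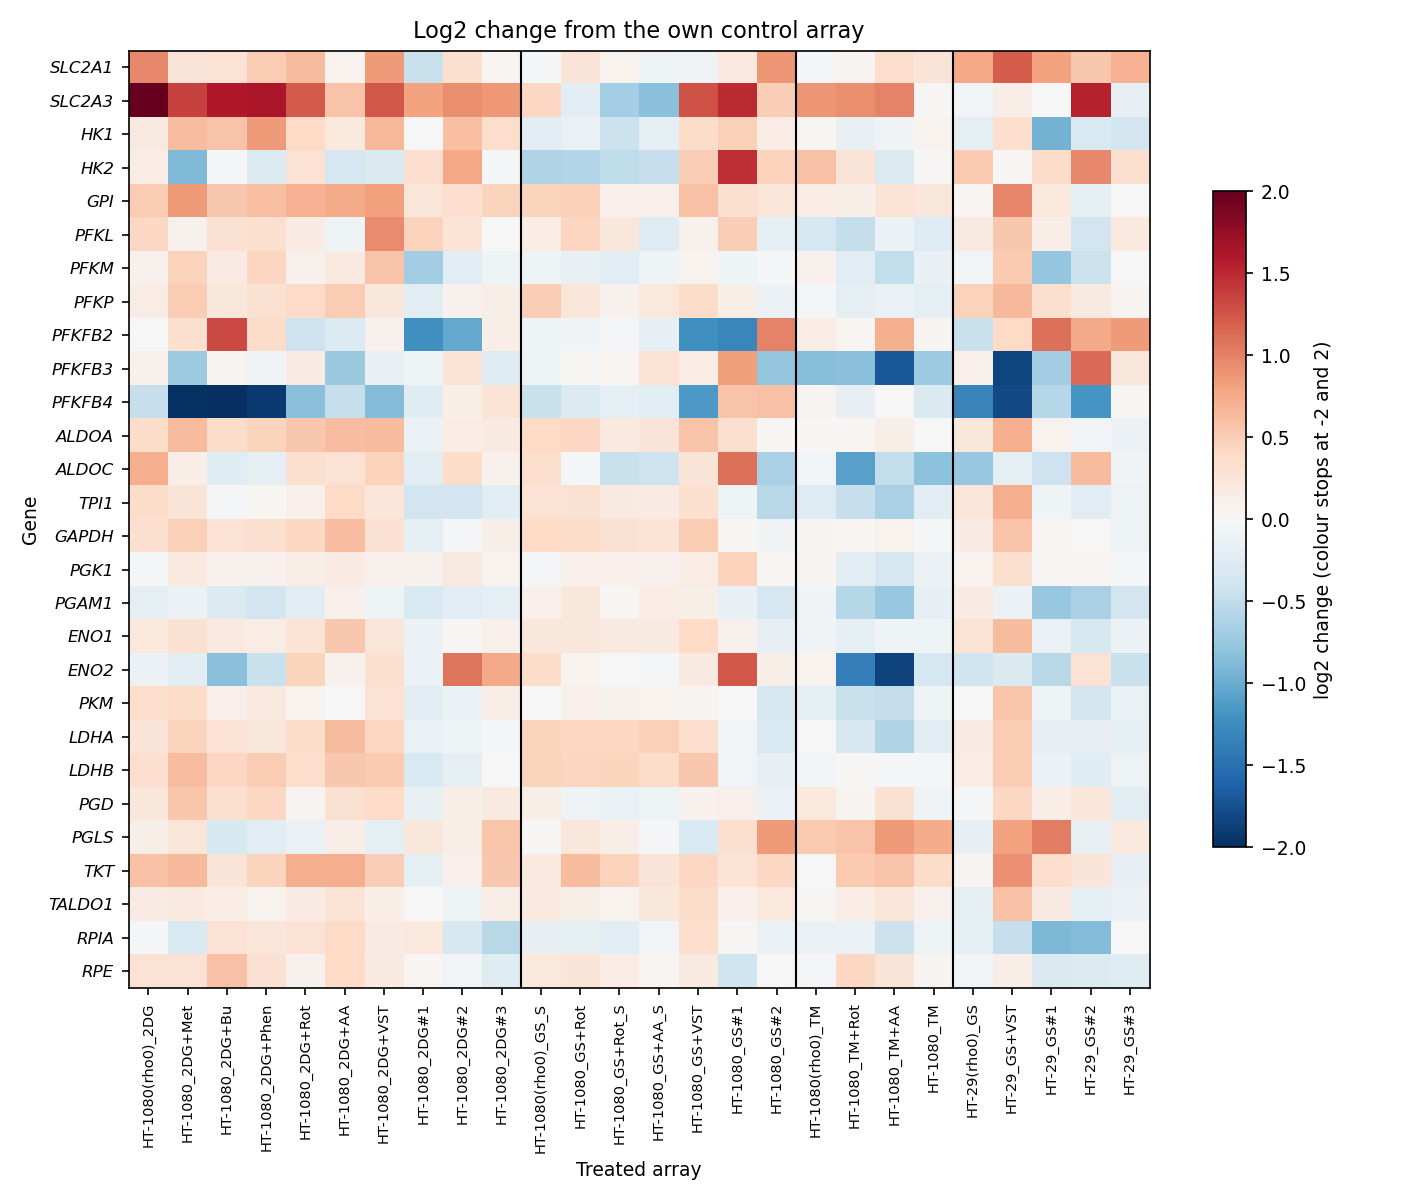
Log2 change of each of the 28 tested members (rows) on each of the 26 treated arrays (columns) from the array's own control, on the common scaling, red higher and blue lower; vertical lines separate HT-1080 with 2DG, with GS, with TM, and HT-29. SLC2A3 is red on all 10 HT-1080 arrays with 2DG, PFKFB4 is darkest blue with 2DG and a biguanide, and GAPDH, LDHA and LDHB are pale red on arrays of HT-1080 with 2DG or GS and a compound and near white or pale blue with 2DG or GS alone.

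Few members, like few of all genes, passed the threshold with a single stress in HT-1080. With 2DG no member passed (0 of 28, with 8.27% of all genes called by limma, 4.9% higher and 3.37% lower, and 4 of 28 members at an unadjusted p under 0.05), and the median change was 0.01 over the members and 0.02 over all genes. With GS 1 member rose, HK2, with 9.45% of all genes called, 4.36% higher and 5.1% lower. With TM no gene of any kind passed in limma (0%, 686 at an unadjusted p under 0.05), and 0 members reached that unadjusted level.

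SLC2A3 was the member with the largest positive 2DG value. Its signals were 289, 348 and 309 with 2DG against 162, 180 and 167 in the matching controls. Every 2DG array lay above every one of the 6 HT-1080 controls, yet the log2 change of 0.87 (SE 0.30) did not pass (adjusted p = 0.0947). Under GS it had 450 and 261 against 155 and 184 (1.00, SE 0.37, adjusted p = 0.114), and with TM 187 against 184. Its other probe sets gave 0.86 and 0.50 with 2DG and 1.27 and 1.04 with GS.

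HK2 had 1076 and 526 with GS against 382 and 382 in their controls, both above the highest of the 6 controls, 478. Its log2 change was 0.97 (SE 0.26, adjusted p = 0.0414), with 1.48 on the first array and 0.46 on the second. The call was lost with the deposited scaling (0.92, adjusted p = 0.0598) and without GS replicate 1 (0.46) or GS replicate 2 (1.48). Leaving out control 1 or control 6 drops the same pairs and repeats these 2 results. The mean over its probe sets was -0.0192, and the dim HK2 probe sets gave -0.55 and -0.48. With 2DG HK2 had 478, 616 and 437 against 376.7, 357.9 and 446.5 (0.36, adjusted p = 0.329). SLC2A1 had 409 and 497 with GS against 357 and 267 (0.54, adjusted p = 0.142). Between GS and 2DG no member differed (0 of 28, with 0.0175% of all genes called in limma, 0.00873% in each direction, and 0 members at an unadjusted p under 0.05), with differences of -0.11 to 0.61.

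The enzymes of lower glycolysis did not pass with either stress on the common scaling. GAPDH had 9704, 9942 and 11360 with 2DG against 11020, 10190 and 10440 in the matching controls (-0.03, SE 0.07). LDHA had 7273, 7207 and 7481 with 2DG against 7988, 7648 and 7662, lower on all 3 arrays, without passing (-0.09, SE 0.07, adjusted p = 0.497). TPI1, triose phosphate isomerase, was also lower on every 2DG and GS array, with changes of -0.55 to -0.10, and did not pass on the common scaling (-0.33, adjusted p = 0.0603 with 2DG), but it was lower with 2DG on the deposited one (-0.37, adjusted p = 0.0358). GPI was the nearest to the threshold in the other direction (0.35, adjusted p = 0.0554 with 2DG). In the pentose phosphate branch the 2DG values ran between -0.22 for RPIA and 0.30 for PGLS.

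In HT-29, GS raised SLC2A1 and lowered HK1, PGAM1 and RPIA, 4 of 28 members, with 27.1% of all genes called, 11.6% higher and 15.5% lower. SLC2A1 had 557, 979 and 377 with GS against 315, 673 and 230 in the matching controls (0.68, SE 0.18, adjusted p = 0.0154). The controls varied more than the change, and within each pair the GS sample was higher. HK1 had 248, 479 and 560 with GS against 482, 594 and 726 (-0.54, SE 0.15, adjusted p = 0.0218). PGAM1, which moves the phosphate of 3-phosphoglycerate, had 2194, 2164 and 3344 with GS against 3720, 3385 and 4310, lower in every pair and without overlap (-0.59, SE 0.09, adjusted p = 0.00169). RPIA had 493, 341 and 706 with GS against 920, 628 and 710 (-0.59, SE 0.19, adjusted p = 0.0407), and the pair of replicate 3, at 14 h, was nearly level.

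RPIA did not pass with the deposited scaling (-0.61, adjusted p = 0.055) or without GS replicate 1 or 2 or control 1 or 2, with adjusted p of 0.203 to 0.227. Without HT-29 GS replicate 1 or control 1, SLC2A1 (0.62, adjusted p of 0.0899 and 0.09) and HK1 (-0.34, adjusted p of 0.176 and 0.177) did not pass either, and 1 member was called. Leaving out a control drops the same pair as leaving out its GS replicate, so these settings are not independent. HK2 had 592, 570 and 340 against 457, 290 and 272 and did not pass (0.55, adjusted p = 0.0799). LDHA had 6873, 7530 and 7215 against 7738, 8421 and 8186, lower in every pair, without passing on the common scaling (-0.17, adjusted p = 0.0942) but passing on the deposited one (-0.19, adjusted p = 0.0441). SLC2A3 stayed between 1.44 and 15.1 with GS. The GS response of the members was not shown to differ between HT-29 and HT-1080 (0 of 28, with 0.567% of all genes called in limma, 0.402% higher and 0.166% lower, and 3 members at an unadjusted p under 0.05), with -1.16 for PFKFB4 (SE 0.35, adjusted p = 0.187) and -0.85 for HK1 (SE 0.24, adjusted p = 0.155). Without HT-29 GS replicate 3 or control 3, 2 members passed that test.

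**Figure D3:**
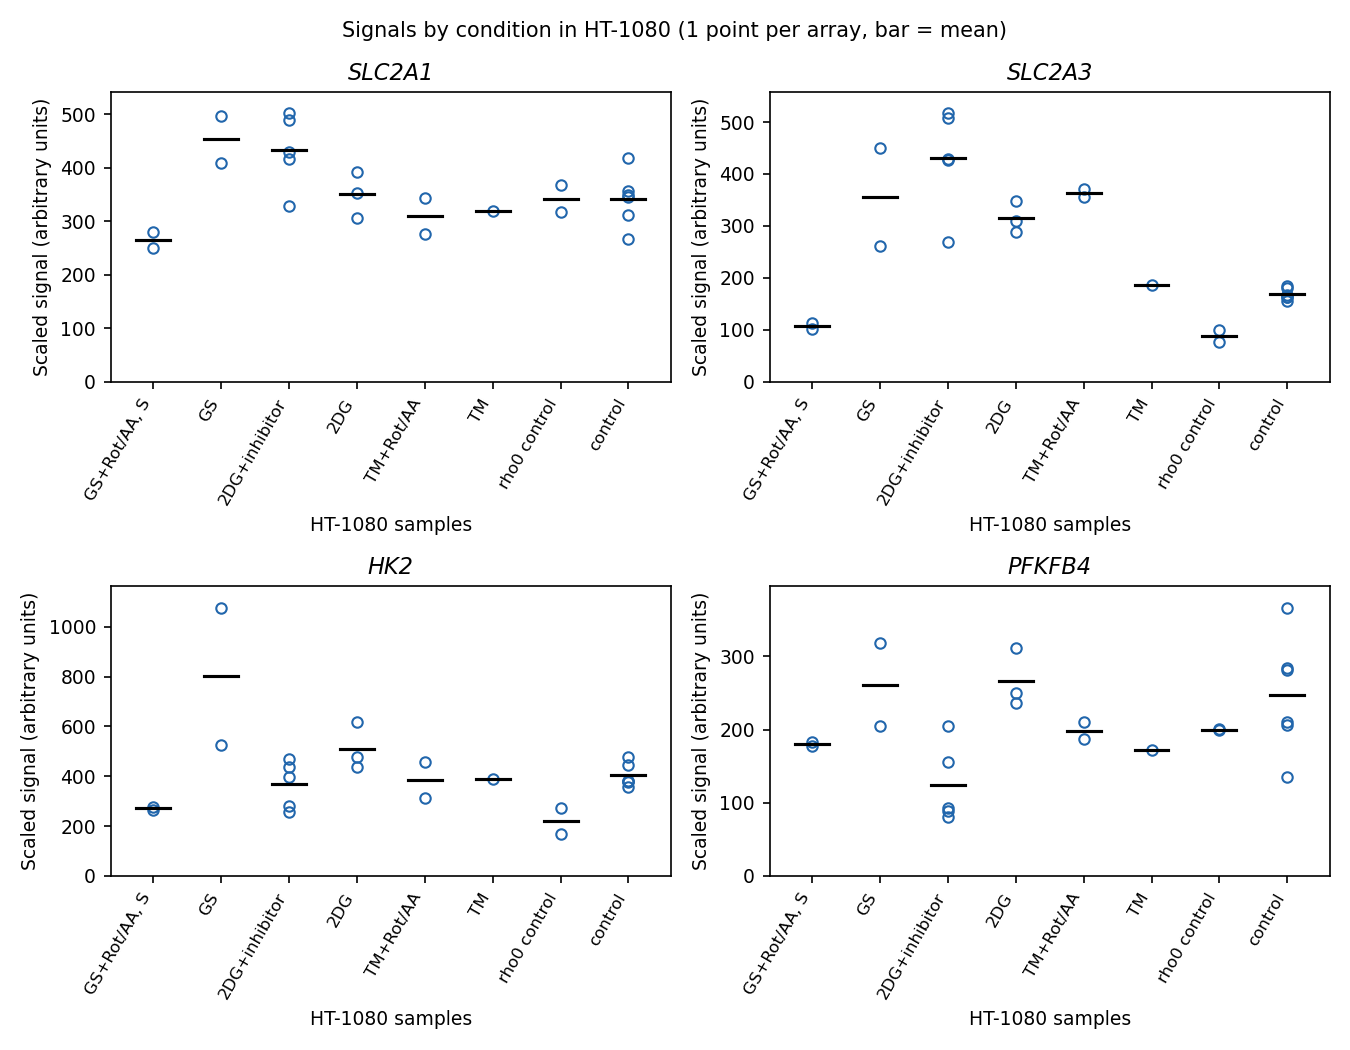
Scaled signals (arbitrary units, linear axes from 0) of SLC2A1, SLC2A3, HK2 and PFKFB4 in HT-1080 samples, 1 circle per array with a bar at the mean; GS with Rot and AA are the samples with the label supernatant. SLC2A3 is at 113 and 100.8 with GS and an inhibitor, 450 and 261 with GS alone and 155 to 184 in controls; PFKFB4 is at 81.1 to 205 with 2DG and an inhibitor and 236 to 312 with 2DG alone.

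Respiratory inhibitors added to 2DG were set against 2DG alone, with the spread between the 5 compounds counted as error. PFKFB4 fell, and 10 members were higher on the common scaling: GPI, PFKM, PFKP, ALDOA, TPI1, GAPDH, ENO1, LDHA, LDHB and TKT (11 of 28 members, with 35% of all genes called, 12.9% higher and 22.1% lower). PFKFB4 had 88.7 with Met, 81.1 with Bu, 93.1 with Phen, 156 with Rot and 205 with AA, against 236, 312 and 250 with 2DG alone and 136, 246 and 367 as lowest, median and highest in controls. All 5 inhibitor arrays lay below all 3 arrays with 2DG alone. The log2 difference was -1.18 (SE 0.29, adjusted p = 0.00425), -1.55 with the deposited scaling and -0.98 after quantile normalization, and its second probe set was lower too.

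The changes of PFKFB4 from the own control were -1.98 with Met, -2.10 with Bu and -1.91 with Phen, which share control 3, and -0.84 with Rot and -0.46 with AA, which share control 4. Control 3 had the highest PFKFB4 signal of the 6. Without it the 3 biguanide arrays had no control left, so the difference of -0.74 (adjusted p = 0.0504) came from Rot and AA. That setting cannot show what the high control added to the biguanide values. With the 3 biguanides only the difference was -2.05 (adjusted p = 0.000887), and with Rot and AA only -0.74 (adjusted p = 0.0593). The compounds were given at different doses and their effects were not compared with each other. SLC2A3 had 429, 507 and 517 with Met, Bu and Phen and 428 and 270 with Rot and AA, against 289, 348 and 309 with 2DG alone. The groups overlapped only at AA, and the difference did not pass (0.22, SE 0.32, adjusted p = 0.638), and was -0.16 on the deposited scaling. The other SLC2A3 probe sets pointed the other way. Their mean changes from the own control were 0.10 and 0.07 with an inhibitor, against 0.86 and 0.50 with 2DG alone. The probe set used gave 1.28 and 0.87. HK2 had 257, 469, 396, 438 and 279 in the same order, against 478, 616 and 437 with 2DG alone, and passed on the deposited scaling (-1.03, adjusted p = 0.0111) but not on the common one (-0.65, adjusted p = 0.0766).

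The 10 higher members depended on the scaling. On the common scaling LDHB had 9973 to 11980 with 2DG and an inhibitor against 6500, 7210 and 7905 with 2DG alone (0.64, SE 0.09, adjusted p = 3.98e-05), and GAPDH 13480 to 15600 against 9704, 9942 and 11360 (0.50, SE 0.09, adjusted p = 0.000263). TPI1 (0.54), LDHA (0.52), PFKM (0.51), TKT (0.50), ALDOA (0.46), PFKP (0.38), GPI (0.36) and ENO1 (0.33) followed. With the deposited scaling LDHB alone of the 10 passed (0.25, adjusted p = 0.0039), the others ran from -0.06 for ENO1 to 0.16 for TPI1, and 6 members were lower: PFKFB4, HK2, PGK1 (-0.38), PGAM1 (-0.28), ENO2 (-1.11) and PGLS (-0.66). Over all genes 373 were then higher and 4657 lower, against 1478 and 2533 on the common scaling. After quantile normalization none of the 10 passed, and without 2DG replicate 2, on the common scaling, 5 of 28 members passed. The median over all genes was -0.12 on the common and -0.48 on the deposited scaling, and over the members 0.24 and -0.14. On both scalings the member median was above that of all genes, and whether these 10 members rose in absolute terms cannot be told apart from the scaling.

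**Figure D4:**
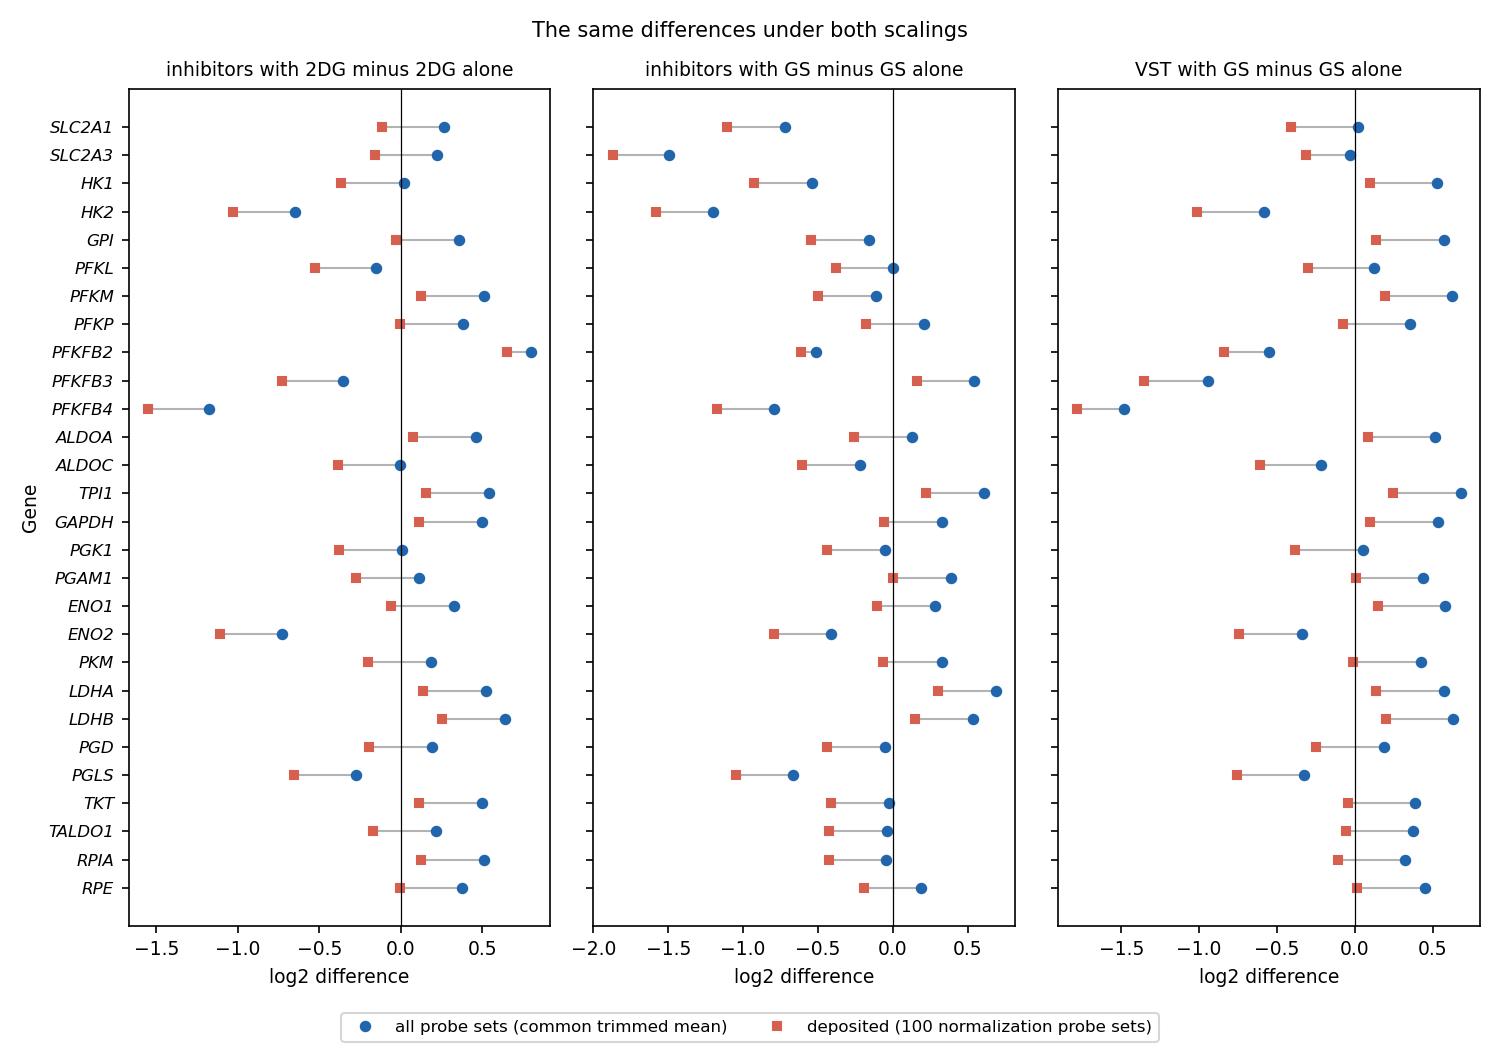
Log2 differences of the 28 tested members for inhibitors with 2DG, inhibitors with GS and VST with GS, each minus the stress alone, on the common scaling (blue circles) and the deposited scaling (red squares), joined by a grey line per gene. PFKFB4 stays negative in all 3 panels on both scalings, and GAPDH, LDHA, LDHB and TPI1 lie right of 0 in all 3 panels on the common scaling. PGK1 lies near 0 on the common scaling and at -0.44 to -0.38 on the deposited one.

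On their brightest probe sets, SLC2A1, SLC2A3 and HK2 were lower with GS and an inhibitor than with GS alone. On the samples with Rot and with AA that carry the label supernatant, 8 of 28 members passed, 3 lower and 5 higher, with 26.6% of all genes called, 12.1% higher and 14.6% lower. The deposited scaling called 1 member higher and 12 lower, and over all genes 630 were higher and 3468 lower, against 1383 and 1670. SLC2A3 had 113 with Rot and 100.8 with AA against 450 and 261 with GS alone and 155 to 184 in controls (-1.50, SE 0.38, adjusted p = 0.00676). HK2 had 266 and 277 against 1076 and 526 with GS alone (-1.20, SE 0.33, adjusted p = 0.0114). The dim HK2 probe sets differed less. Their mean changes from the own control were -0.78 and -0.82 with an inhibitor and -0.55 and -0.48 with GS alone. The HK2 probe set used gave -0.49 and 0.97. SLC2A1 had 280 and 250 against 409 and 497 (-0.72, SE 0.24, adjusted p = 0.0343). All 3 genes were lower on both inhibitor arrays than on both GS arrays. The GS with Rot sample without that label had 156 for SLC2A3, 253 for HK2 and 319 for SLC2A1, also below both GS arrays, though whether it shares a culture with the other Rot sample is not stated. With it in place of that sample the differences were -1.28 (adjusted p = 0.0243), -1.24 (adjusted p = 0.0105) and -0.63 (adjusted p = 0.0746).

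SLC2A3 and HK2 passed under 3 scalings, at -1.87 and -1.58 with the deposited one. The 9 further members lower with that scaling were HK1 (-0.93), GPI (-0.55), PFKFB4 (-1.18), ALDOA (-0.26), PGK1 (-0.44), PGD (-0.44), PGLS (-1.05), TKT (-0.41) and TALDO1 (-0.42). SLC2A1 did not pass after quantile normalization (-0.61, adjusted p = 0.0675) or with the mean over its probe sets (-0.0444, adjusted p = 0.932). With so few arrays, single libraries decided several calls. Without GS replicate 2 only 1 of 28 members passed, without the AA sample 5 and without the Rot sample 4, and 7 was the highest count with any 1 array left out. HK2 lost its call without the Rot sample (-1.17), without GS replicate 1 (-0.94) and without control 1 or 6 (-0.94), and SLC2A3 without GS replicate 2 (-2.25). The settings without GS replicate 1, control 1 or control 6 leave the same contrast for HK2. SLC2A1 lost its call without the Rot sample (-0.80, adjusted p = 0.0748), the AA sample (-0.64, adjusted p = 0.148) or GS replicate 2 (-0.21, adjusted p = 0.841). ACTB 3' to 5' signal ratios, a sign of RNA integrity, were 1.67 and 1.76 on the Rot and AA samples with the label supernatant and 1.51 on GS with Rot, against 1.26 and 1.42 on the GS arrays, and the part of RNA quality in these results was not tested.

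The 5 members higher with GS and an inhibitor were LDHA (0.69, adjusted p = 0.000386), TPI1 (0.61, adjusted p = 0.00395), LDHB (0.54, adjusted p = 0.000911), PGAM1 (0.39, adjusted p = 0.0462) and GAPDH (0.33, adjusted p = 0.0211). LDHA had 10220 and 10680 with an inhibitor against 6759 and 6215 with GS alone. It was also called with the deposited scaling (0.30, adjusted p = 0.0196), whereas TPI1 (0.22) and LDHB (0.15) did not pass and PGAM1 and GAPDH turned to -0.0016 and -0.06. After quantile normalization LDHA did not pass (0.20, adjusted p = 0.132) and GAPDH was lower (-0.19, adjusted p = 0.0214). GAPDH was read from the control probe set for its 5' end. Its mean change from the own control was 0.29 there and 0.38 to 0.49 on the other GAPDH probe sets. GAPDH 3' to 5' signal ratios were 1.06 and 1.07 on these Rot and AA samples, against 0.95 and 0.92 on the GS arrays. The part of RNA quality was not tested. Dim probe sets of ENO1 and PKM, not used in the tests, gave changes from the own control of 4.64 and 2.73 with GS and an inhibitor, against 0.18 and 0.07 for the probe sets used.

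With TM no member changed with the inhibitors past the threshold (0 of 28, with 0.742% of all genes called in limma, 0.192% higher and 0.55% lower, and 5 members at an unadjusted p under 0.05). SLC2A3 had 356 with Rot and 371 with AA against 187 with TM alone and 155 to 184 in controls (0.94, SE 0.42, adjusted p = 0.331). ENO2, the neuronal enolase, had 71.6 and 49.6 against 151 with TM alone (-1.26, SE 0.39, adjusted p = 0.143). PFKFB4 had 187 and 210 against 172 (0.20, adjusted p = 0.882). In the test of the difference between the inhibitor effects under 2DG and under TM, TPI1 (0.88, SE 0.20, adjusted p = 0.0199), LDHA (0.77, SE 0.16, adjusted p = 0.0185) and LDHB (0.62, SE 0.14, adjusted p = 0.0225) were more positive under 2DG, 3 of 28 members with 5.12% of all genes called, 1.91% higher and 3.2% lower. None of the 3 passed after quantile normalization and, with 0 of 28 members called, none without 2DG replicate 2 (adjusted p of 0.0879 to 0.0992) or TM with AA (0.0832 to 0.0869). With the deposited scaling TPI1 (0.58, adjusted p = 0.0365) and LDHA (0.46, adjusted p = 0.0362) passed and LDHB (0.31, adjusted p = 0.0683) did not. PFKFB4 did not pass that test on the common scaling (-1.38, SE 0.48, adjusted p = 0.0949) but did on the deposited one (-1.68, adjusted p = 0.0345), which called 2 members higher and 1 lower. Over all genes it called 63 higher and 990 lower, against 219 and 367 on the common scaling. With TM and an inhibitor it called 0 members.

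VST added to GS was followed by a lower PFKFB4 and by higher signals of 15 members on the common scaling, in 1 HT-1080 and 1 HT-29 sample (16 of 28 members, with 36% of all genes called, 14.7% higher and 21.3% lower). PFKFB4 had 57.9 with VST in HT-1080 against 204 and 318 with GS alone, and 4.17 with VST in HT-29 against 17.5, 12.4 and 21.4 with GS alone. Both VST arrays were below all GS arrays of their line, and all the HT-29 signals were under the level required by the filter. The log2 difference was -1.48 (SE 0.29, adjusted p = 0.000568), -1.78 with the deposited scaling, -1.73 in HT-1080 only (adjusted p = 0.01) and -1.23 in HT-29 only (adjusted p = 0.0255). With 2DG and VST, 1 array without a replicate, PFKFB4 had 198 against 236, 312 and 250 with 2DG alone, and its change from the own control was -0.87.

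The 15 higher members were HK1, GPI, PFKM, PFKP, ALDOA, TPI1, GAPDH, PGAM1, ENO1, PKM, LDHA, LDHB, TKT, TALDO1 and RPE, by 0.36 for PFKP to 0.68 for TPI1. LDHB had 10640 with VST against 7073 and 7551 with GS alone in HT-1080, and 13350 against 8651, 6536 and 9030 in HT-29 (0.63, SE 0.09, adjusted p = 2.59e-05). With the deposited scaling 1 member was higher and 5 were lower: LDHB alone of the 15 passed (0.20, adjusted p = 0.0173), and the lower ones were PFKFB4, HK2 (-1.01), PFKFB3 (-1.35), PGK1 (-0.38) and PGLS (-0.76). Over all genes 324 were then higher and 4460 lower, against 1689 and 2439. Without passing, PFKP (-0.08), TALDO1 (-0.06), TKT (-0.05) and PKM (-0.01) turned negative. After quantile normalization GPI, HK1, PFKM, RPE and TPI1 passed. In HT-1080 only, added after the data were seen, 5 members passed, and HK1 stood at -0.03. The members' median was 0.36 and -0.07 on the common and the deposited scaling, against -0.05 and -0.44 over all genes. By array on the common scaling, the member median change was 0.28 with VST in HT-1080, against 0.16 and -0.01 with GS alone. In HT-29 it was 0.51 with VST, against -0.05, -0.16 and -0.10 with GS alone. The larger difference thus came from the 1 HT-29 array with VST.

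In rho0 HT-1080 cells under 2DG or GS, 4 of 28 members changed more positively than in parental cells, with 14.8% of all genes called (6.29% higher and 8.55% lower). They were TPI1 (0.66, SE 0.15, adjusted p = 0.00809), LDHB (0.52, SE 0.11, adjusted p = 0.00507), LDHA (0.49, SE 0.13, adjusted p = 0.0143) and GAPDH (0.39, SE 0.11, adjusted p = 0.0207). LDHA had 9028 with 2DG and 9740 with GS in rho0 cells, whose controls had 7582 and 7132, against 7273, 7207 and 7481 with 2DG and 6759 and 6215 with GS in parental cells. None of the 4 passed with the deposited scaling (0.10 to 0.37, adjusted p = 0.0501 to 0.325) or after quantile normalization. Without GS replicate 2 or control 6 of HT-1080, 2 members passed, and LDHA (0.43, adjusted p = 0.0572) and GAPDH (0.36, adjusted p = 0.0653) did not pass.

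SLC2A3 had 644 with 2DG in rho0 cells against 289 to 348 in parental cells with 2DG, and its own control was at 77.1, a log2 change of 2.97 on 1 array. With GS, on the sample with the label supernatant, it had 135 against 100.4 in its rho0 control, and with TM 190.0 against 100.4. The rho0 difference over 2DG and GS together did not pass (0.71, SE 0.40, adjusted p = 0.258). HK2 had 187 with 2DG, 177 with GS and 412 with TM in rho0 cells, whose controls had 167 and 271. The rho0 difference of HK2 was -0.88 on the common scaling (SE 0.35, adjusted p = 0.0992) and -1.16 on the deposited one (adjusted p = 0.0429). The deposited scaling called 0 members higher and 2 lower, HK2 and PGK1 (-0.49, adjusted p = 0.00501), with 189 of all genes higher and 1945 lower against 721 and 979 on the common scaling. In rho0 HT-29 with GS for 14 h, 1 array without a replicate, SLC2A1 had 663 against 386 in its control and PFKFB4 18.8 against 55.9.

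Of 55 further genes of carbohydrate metabolism, listed by function, 33 were tested, and their values are given on the common scaling only. With 2DG, PYGB, the brain glycogen phosphorylase, rose by 0.69 (adjusted p = 0.0169), and MPC2, a subunit of the mitochondrial pyruvate carrier (-0.47, adjusted p = 0.0435), and PRPS1, which makes phosphoribosyl pyrophosphate from ribose phosphate (-0.58, adjusted p = 0.0431), fell. PRPS1 alone passed with GS in HT-1080 (-0.86, adjusted p = 0.0203). With GS in HT-29, 3 rose and 7 fell, among them HKDC1, a hexokinase family member (2.33, SE 0.41, adjusted p = 0.00301), and GALK1, galactokinase (-1.36, SE 0.30, adjusted p = 0.00788). With 2DG and an inhibitor 5 were higher and 7 lower than with 2DG alone, led by H6PD, the hexose 6-phosphate dehydrogenase of the endoplasmic reticulum (-1.51, SE 0.21, adjusted p = 5.32e-05), and SLC2A13, an inositol carrier (-1.29, SE 0.31, adjusted p = 0.00329).

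With GS and an inhibitor 3 were higher and 2 lower, including SLC2A13 (-1.04, adjusted p = 0.0422) and MPC2 (0.79, adjusted p = 0.00144). With VST and GS 6 were higher and 7 lower, including HKDC1 (-2.26, SE 0.57, adjusted p = 0.0044) and H6PD (-1.62, SE 0.21, adjusted p = 1.61e-05). In rho0 HT-1080 controls H6PD (1.41, SE 0.27, adjusted p = 0.00417) and BSG (0.72), the chaperone of lactate carriers, were higher, and PGM2L1 (-1.27) and PRPS2 (-0.93) lower. In the rho0 HT-29 control PRPS1 was lower (-1.08, adjusted p = 0.0081). Between the lines, 9 were higher in HT-29 and 9 lower, with HKDC1 at 4.06 and EMB, another chaperone of lactate carriers, at -4.83.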

How the data were processed

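Total RNA of 38 samples was labelled and hybridised by the authors to Affymetrix arrays, 1 array per sample; whether the 2 samples with GS and Rot share a culture is not stated. The deposited values are MAS5 signal intensity values on a linear scale, per the submitters' processing notes. The arrays hold 100 normalization probe sets, and the deposited scaling was taken to rest on them. Each array was rescaled to a common 2% trimmed mean of 114 over the 54675 probe sets, and log2 was taken after adding 5% of it. A probe set with 1 gene symbol was kept when 2 or more arrays held 40% of the trimmed mean, as 21480 did, and the brightest probe set stood for its gene. The probe table's symbols came from the platform annotation; 1801 probe sets had several symbols and 11777 none.

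The tests were moderated fits by limma 3.58.1 (R 4.3.3) with a trend on mean signal. Every treated array has a control named in its sample description, and arrays sharing 1 control formed a fixed block. Residuals of replicated arrays correlated with those of the named control at 0.255 to 0.629. A fitted change therefore also draws on the other arrays of a control set and can differ from the plain mean. Group, class and control fits had 5, 11 and 8 residual degrees of freedom. Members and lists were chosen with earlier results of these data known. Every member could be named, and other pathway genes only past the threshold, at most 4 per comparison. Alternatives were other offsets, filters, scalings, probe set choice, trend, block, array subsets and leaving out each array. Leaving out a control leaves its treated arrays without a change from control, so it can repeat the result without those arrays. The number of arrays limits the precision. Figures used matplotlib.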

Additional observations from a re-analysis of the deposited data

Results flagged for a closer look

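Several members responded differently in samples compared under the same contrast. The effect of respiratory inhibitors was more positive under 2DG than under TM for TPI1 (difference 0.88), LDHA (0.77) and LDHB (0.62), on the log2 scale by limma. The response to 2DG and GS was more positive in rho0 than in parental HT-1080 cells for TPI1 (0.66), LDHB (0.52), LDHA (0.49) and GAPDH (0.39). Both sets rest on arrays with low deposited trimmed means, and with the deposited scaling TPI1 and LDHA kept the first difference and none of the 4 kept the second. Among the 6 HT-1080 controls none of 29 members had an array far from the others by Dixon's test, where chance flags about 1 in 20 groups.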

How the results depend on the processing

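The number of the 28 members called changed by more than 1.5 times under several settings, and where no value shows it the cause was not tested. For GS in HT-1080 (1 called), 0 were called with an offset of 2%, without the filter, with the deposited scaling and without the trend, 2 with an offset of 20% and 4 on arrays of the same line only. For 2DG (0 called), 2 were called with an offset of 20%, the stricter filter or quantile normalization, 1 with the deposited scaling or the mean of all probe sets, and 4 on the same line only. For GS in HT-29 (4 called), 2 were called without the trend and 2 on the same line only, and for the rho0 HT-29 control (3 called) 0 on the same line only. Without the block for the named pairing there was 1 member for 2DG, 3 for GS in HT-1080 and 1 for GS in HT-29. With the deposited scaling, 7 were called for inhibitors with 2DG, 13 for inhibitors with GS, 6 for VST, 2 for rho0 cells under stress and 9 for rho0 HT-1080 controls. After quantile normalization the counts were 2, 5, 7 and 1 for the first 4 of these, 1 for inhibitors with TM and 0 for the 2DG against TM difference. Without the trend they were 5 for inhibitors with GS, 1 for rho0 cells under stress and 0 for the 2DG against TM difference. With the 3 biguanides only 4 members were called, and with VST in HT-1080 only 5. In rho0 cells 2 were called with 2DG only and 0 with GS only, settings chosen after seeing the data, as were the VST subsets. Directions turned with the deposited scaling for ENO1 (-0.0615), GPI (-0.0282) and PFKP (-0.00572) with 2DG and inhibitors, GAPDH (-0.0607) and PGAM1 (-0.0016) with GS and inhibitors, and PFKP (-0.0778), PKM (-0.0118), TALDO1 (-0.0595) and TKT (-0.0471) with VST. After quantile normalization they turned for ENO1 (-0.158) and PFKP (-0.00592) with 2DG and inhibitors and GAPDH (-0.193) with GS and inhibitors. With the mean of all probe sets HK2 turned with GS (-0.0192) and in rho0 HT-1080 controls (0.715), and HK1 turned with VST in HT-1080 only (-0.0257). Of 71 called values, 35 kept their direction and call with the deposited scaling, 37 after quantile normalization and 52 without the trend. Leaving out 1 array gave 5 to 14 members for inhibitors with 2DG, 1 to 7 with GS, 0 to 0 with TM, 0 to 4 for the 2DG against TM difference, 12 to 17 for VST, 2 to 4 for rho0 cells under stress, 0 to 0 for 2DG, GS in HT-1080, TM and GS minus 2DG, 1 to 6 for GS in HT-29, 0 to 2 for the GS difference between lines, 1 to 3 and 2 to 3 for the rho0 controls of HT-1080 and HT-29, and 17 to 18 between the lines. Over all genes the other settings called 504 to 2752 for 2DG (947 in the main setting), 449 to 2787 for GS (1083), 1171 to 3254 for GS in HT-29 (3104), 0 to 187 for TM (0), 1 to 64 for GS minus 2DG (2), 0 to 121 for the GS difference between lines (65), 2582 to 5030 for inhibitors with 2DG (4011), 20 to 207 for inhibitors with TM (85), 205 to 1053 for the 2DG against TM difference (586), 1508 to 4784 for VST (4128), 196 to 2134 for rho0 cells under stress (1700) and 10 to 1227 for the rho0 HT-29 control (913). Signals near background limit SLC2A3, PFKFB2 and PFKFB4 in 1 line each.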
